A study of Macaca mulatta with 20 samples.

Results

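The macrophage and microglia genes were 10 genes that mark tissue-resident phagocytes, namely C1QA, C1QB, C1QC, LYZ, TYROBP, AIF1, CSF1R, CD14, CD68 and CD163. They were chosen by name and read in rhesus macaque RNA, from every probe set whose single gene symbol in the array annotation is one of them. They are 10 of 21951 genes with a symbol of their own on either array type. On the rhesus arrays 9 of the 10 were measured, by 12 probe sets, and CD163 had none. The human arrays also measured 9 of the 10, by 15 probe sets. The probe set of CD68 there also carries the symbol of a small nucleolar RNA (SNORA67) and was not used.

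RNA came from cerebral cortex, pancreas, testis and thymus, and from a cultured line of immortalized rhesus fibroblasts. The RNA of each source was split and hybridized to 2 Rhesus Macaque Genome Arrays, whose probes were designed for rhesus transcripts, and to 2 Human Genome U133 Plus 2.0 arrays, whose probes were designed for human transcripts. The labels call these arrays technical replicates, and give neither the number of animals behind a tissue nor a treatment, age or sex. The p-values below therefore measure the spread between arrays of 1 RNA preparation per source, not between animals. All values are deposited log2 expression values, so that a difference of 1 is a doubling.

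Macrophages are phagocytes that settle in every tissue, and microglia are the resident macrophages of the brain. They take up dead cells and debris, make the complement protein C1q, and depend on signals through the receptor CSF1R. The adaptor TYROBP carries signals of activating receptors on these cells, and CD14, CD68 and CD163 are classical surface or lysosomal markers of the monocyte and macrophage lineage. Cultured fibroblasts belong to another lineage and hold no resident macrophages, which is why each tissue was set against them.

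The arrays fitted their labels. Of 5 marker genes listed per source, all that were measured had their highest level in their own source, except CYP17A1 in testis on the human arrays. The markers were chosen with earlier results of these data known, so this check is not independent of the data. The pancreas stood apart in quality. Its pair of rhesus arrays had a spread of 0.281 (SD of log2 values over probe sets), against 0.137 to 0.170 for the other pairs, and its human pair 0.218, against 0.151 to 0.166. The 3′ minus 5′ level of actin control probe sets was 4.58 in pancreas on the rhesus arrays, against 2.07 to 2.66 elsewhere, and 2.40 on the human ones, against 2.03 to 2.47. Bacterial control probe sets whose transcript had not been added gave a floor. The highest source mean of these 27 was 3.56 for rhesus arrays and 3.22 for human arrays, and a probe set at or below it has only an upper bound. Where fibroblasts were at the floor, a log2 difference is that of the measured values, and the fold written as "at least" is taken from the floor.

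Thymus held the highest levels of most of these genes. Among the 12 rhesus probe sets 7 had their highest mean in thymus, 3 in cortex, 1 in pancreas and 1 in fibroblasts, and among the 15 human probe sets 11 had it in thymus. These ranks include probe sets at the floor in every source, such as those of CD163, and leads within the spread between arrays. Human C1QA led in thymus by 0.23, and the dimmer rhesus probe set of CD68 by 0.16. The share of all probe sets with their highest mean in thymus was not computed. A probe set was called in a comparison when its Benjamini-Hochberg adjusted p over all probe sets of the array type was below 0.05 and its log2 difference was at least 1 (limma, two-sided). Thymus minus fibroblasts called 8 of 12 rhesus probe sets higher, where 15.1% of all probe sets were called higher, and 1 lower, where 11.2% were. The same comparison called 8 of 15 human probe sets higher, against 7.28% of all probe sets, and 1 lower, against 6.88%. In bulk RNA, fewer cells of a type and less RNA per cell cannot be told apart.

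The other tissues showed fewer of these genes above fibroblasts, and almost none on the human arrays. On the rhesus arrays cortex called 5 probe sets higher and 2 lower than fibroblasts, with 13.7% and 13.9% of all probe sets called in those directions. Pancreas called 6 higher and 1 lower, with 7.96% and 16.0% of all. Testis called 7 higher and 2 lower, with 15.0% and 10.3% of all. Each of these 3 tissues called 1 human probe set lower, that of CD14, where 8.33% of all were called lower in cortex, 10.8% in pancreas and 6.34% in testis. Cortex called 1 human probe set higher (7.75% of all), pancreas 2 (3.80% of all) and testis 2 (6.82% of all), so that cortex lay close to the background. The median difference of the 12 rhesus probe sets was 0.76 in cortex, 1.04 in pancreas, 1.20 in testis and 2.83 in thymus, while the medians of all rhesus probe sets lay between -0.09 and 0.07. The medians of the 15 human probe sets were 0.02, 0.07, 0.08 and 1.24 in the same order of tissues.

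These differences depend on the scale of each array, most of all in pancreas. When each array was scaled to its spiked hybridization controls, the median of all probe sets relative to fibroblasts moved by -1.55 in pancreas, -0.69 in testis, -0.52 in thymus and -0.48 in cortex (rhesus), and by -1.45, -0.57, -0.41 and -0.36 (human). The share of higher calls among all rhesus calls was then 3.01% in pancreas, 27.6% in testis, 39.5% in thymus and 35.0% in cortex, in place of 33.2%, 59.3%, 57.4% and 49.5%. For human arrays it was 1.19%, 25.8%, 34.2% and 35.4%, in place of 26.0%, 51.9%, 51.4% and 48.2%. Quantile normalization gave 47.1% and 45.9% in pancreas. Only 1 of the 6 rhesus member probe sets called higher in pancreas was called on the spiked scale, whereas thymus kept 8 rhesus probe sets called higher.

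**Figure D1:**
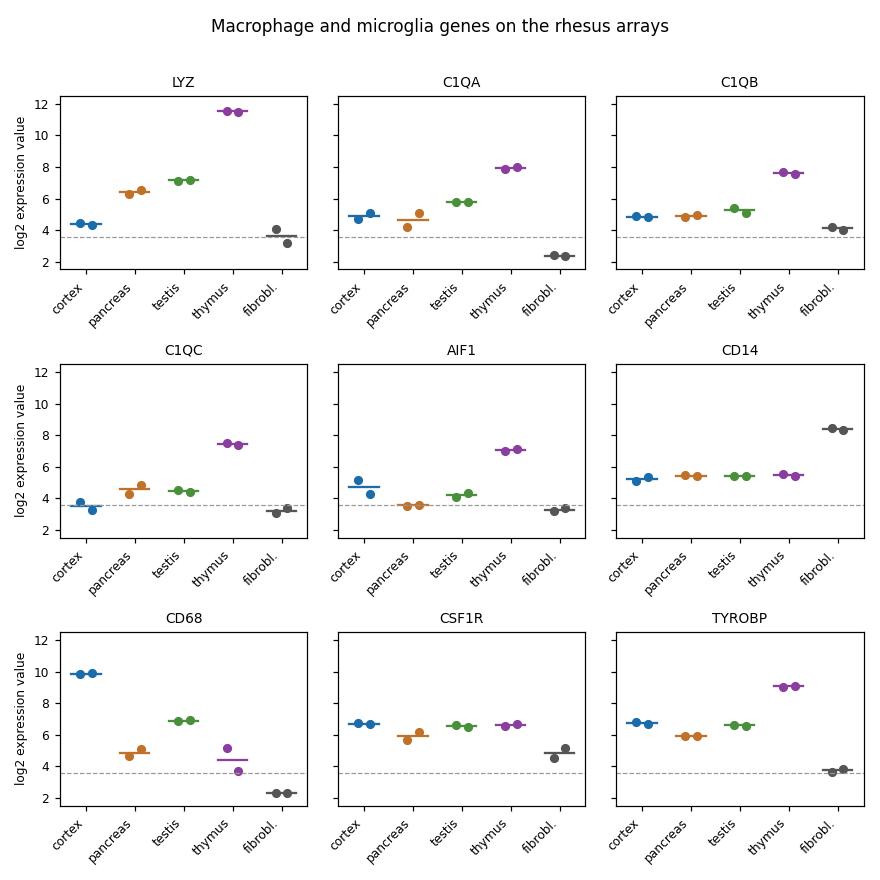
Log2 expression value of the brightest probe set of each gene on the rhesus arrays, with 1 point per array, a bar at the mean of the 2 arrays of a source, and the floor of 3.56 as a dashed line. Thymus is highest for LYZ, C1QA, C1QB, C1QC, AIF1 and TYROBP, cortex for CD68, and fibroblasts for CD14.

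C1QA, C1QB and C1QC encode the chains of C1q, the recognition protein that starts the classical complement pathway and is made mainly by macrophages. In the rhesus gene table used for names (assembly T2T-MMU8v2.0) C1QB, C1QC and C1QA follow each other, with no other protein-coding gene between them. C1QA, read from its brightest rhesus probe set, had values of 4.70 and 5.09 in cortex, 4.21 and 5.06 in pancreas, 5.78 and 5.81 in testis and 7.86 and 7.99 in thymus, against 2.40 and 2.37 in fibroblasts. No tissue array overlapped the fibroblast arrays, which lay below the floor. C1QA was at least 20.6-fold higher in thymus than in fibroblasts (log2 difference 5.54, SE 0.27, adjusted p = 7.33e-06), and it was also called higher in testis (3.41, at least 4.72-fold), cortex (2.51, at least 2.54-fold) and pancreas (2.25, at least 2.12-fold). Testis lay above cortex (adjusted p = 0.0377), while cortex and pancreas did not differ beyond their spread (adjusted p = 0.416).

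C1QB had rhesus values of 4.89 and 4.82 in cortex, 4.80 and 4.96 in pancreas, 5.40 and 5.11 in testis and 7.71 and 7.58 in thymus, against 4.21 and 4.00 in fibroblasts. All 4 tissues lay above fibroblasts on the deposited scale, but only testis (1.15) and thymus (3.54, SE 0.12, adjusted p = 1.49e-06) passed the minimum difference of 1. Cortex and pancreas exceeded fibroblasts by 0.75 and 0.78 with adjusted p-values of 0.00255 and 0.00232. Scaled to the spiked controls, pancreas lay below fibroblasts instead (-0.78, adjusted p = 0.000376), and the testis call was lost (0.46). C1QC had values of 3.74 and 3.26 in cortex, 4.29 and 4.85 in pancreas, 4.48 and 4.39 in testis and 7.48 and 7.34 in thymus, against 3.04 and 3.35 in fibroblasts. Its cortex and fibroblast arrays overlapped and both sources were at the floor. C1QC was at least 14.5-fold higher in thymus (4.22, SE 0.24, adjusted p = 1.38e-05) and was called higher in testis (1.24, at least 1.84-fold) and in pancreas (1.37, at least 2.02-fold). On the spiked scale it was called in neither (0.55, adjusted p = 0.0583, in testis and -0.18 in pancreas).

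On the human arrays the 3 chains gave 3 different pictures. C1QC kept the pattern best, with 4.07 and 4.34 in cortex, 4.85 and 5.11 in pancreas, 5.75 and 5.35 in testis and 7.60 and 7.22 in thymus, against 2.65 and 3.43 in fibroblasts. It was called higher in all 4 tissues, by 4.37 in thymus (SE 0.30, at least 18.2-fold), 2.51 in testis (at least 5.01-fold), 1.94 in pancreas (at least 3.38-fold) and 1.16 in cortex (at least 1.97-fold). The cortex call was close to the threshold (adjusted p = 0.0373) and was lost when any 1 of 9 arrays was left out. C1QB was above the floor only in thymus, at 5.48 and 5.01 against 2.82 and 2.91 in fibroblasts (at least 4.06-fold, adjusted p = 7.48e-05). C1QA lay between 3.49 and 3.71 on 9 of the 10 human arrays and at 4.35 on 1 thymus array, and was called in no comparison (thymus minus fibroblasts 0.41, SE 0.24, adjusted p = 0.338).

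LYZ encodes lysozyme, which cleaves bacterial cell walls and is made by macrophages and monocytes, and also by neutrophils and some epithelia. It showed the largest difference between thymus and fibroblasts of all members. Its rhesus values were 4.43 and 4.32 in cortex, 6.31 and 6.56 in pancreas, 7.14 and 7.20 in testis and 11.54 and 11.51 in thymus, against 4.04 and 3.17 in fibroblasts. The sources did not overlap. LYZ was 243-fold higher in thymus (7.92, SE 0.26, adjusted p = 1.23e-06), and was called higher in testis (3.57) and pancreas (2.83). These differences rest on a fibroblast mean of 3.60, just above the floor of 3.56, with the array at 3.17 below it. Cortex exceeded fibroblasts by 0.78 (adjusted p = 0.0513), where the 2 fibroblast arrays differed from each other by more than the cortex arrays did.

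The brighter human probe set of LYZ gave 4.68 and 4.03 in cortex, 6.29 and 6.42 in pancreas, 6.26 and 6.27 in testis and 10.34 and 10.05 in thymus, against 4.24 and 3.14 in fibroblasts. The order was that of the rhesus arrays except that pancreas and testis were not told apart (adjusted p = 0.854). Thymus exceeded fibroblasts by 6.51 (SE 0.38, adjusted p = 5.81e-05), pancreas by 2.67 and testis by 2.58. The dimmer human probe set was called only in thymus, with 8.31 and 8.23 against 3.45 and 3.64 in fibroblasts (4.73, SE 0.21). In testis it exceeded fibroblasts by 0.83 (adjusted p = 0.0353), below the minimum difference. It correlated with the brighter one at r = 0.912 over the 10 arrays of 5 sources.

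TYROBP, also called DAP12, is the adaptor through which receptors such as TREM2 signal in macrophages and microglia, and it also serves natural killer cells. It was the member with the smallest spread on the rhesus arrays among those called in every tissue. Its values were 6.82 and 6.70 in cortex, 5.94 and 5.89 in pancreas, 6.63 and 6.57 in testis and 9.01 and 9.11 in thymus, against 3.62 and 3.84 in fibroblasts. Every tissue array lay above both fibroblast arrays. TYROBP was 40.1-fold higher in thymus (5.33, SE 0.08, adjusted p = 5.65e-08), 8.14-fold in cortex, 7.30-fold in testis and 4.54-fold in pancreas, and all 4 were called. Cortex and testis did not differ beyond their spread (0.16, adjusted p = 0.21).

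On the human arrays TYROBP read 4.59 and 4.71 in cortex, 4.16 and 4.56 in pancreas, 4.77 and 4.55 in testis and 6.82 and 7.18 in thymus, against 4.11 and 3.98 in fibroblasts. Only thymus was called higher (2.95, SE 0.18, adjusted p = 6.17e-05). Testis and cortex exceeded fibroblasts by 0.61 each with adjusted p-values of 0.0507 and 0.0591.

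AIF1 encodes a calcium-binding protein, known as Iba1, that is a standard stain for microglia. Its brighter rhesus probe set gave 5.15 and 4.27 in cortex, 3.50 and 3.58 in pancreas, 4.04 and 4.30 in testis and 7.00 and 7.10 in thymus, against 3.18 and 3.35 in fibroblasts. Thymus was again highest, at least 11.3-fold above fibroblasts (3.78, SE 0.27, adjusted p = 4.42e-05). Cortex was the only other tissue called higher (1.45, at least 2.23-fold, adjusted p = 0.00476), but it was not beyond the spread from testis (adjusted p = 0.171), and its 2 arrays lay 0.88 apart. The cortex call was lost on the spiked scale (0.97), in a fit of only the 2 sources (adjusted p = 0.0604) and with the mean of the probe sets (0.78). The second rhesus probe set of AIF1 was at the floor in all 5 sources (2.10 to 2.56). Of the 4 human probe sets of AIF1, 3 were called higher in thymus than in fibroblasts, by 1.98, 1.25 and 1.24, and 1 was at the floor everywhere. Fibroblasts were at the floor by each of them. For the differences of 1.25 and 1.24 the thymus means were 3.73 and 3.50, little above the floor of 3.22. The brightest human probe set read 4.60 and 5.14 in thymus, against 2.72 and 3.07 in fibroblasts, and was called in no other tissue.

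CSF1R is the receptor for the growth factors CSF1 and IL34, on which macrophages and microglia depend to survive. Unlike the genes above it was not highest in thymus beyond the spread. Its rhesus values were 6.73 and 6.65 in cortex, 5.68 and 6.15 in pancreas, 6.61 and 6.49 in testis and 6.57 and 6.65 in thymus, against 4.50 and 5.13 in fibroblasts. Neighbours among cortex, thymus and testis differed by 0.08 and 0.06 (adjusted p = 0.878 and 0.872), and pancreas lay 0.64 below testis (adjusted p = 0.0452). CSF1R was called higher than in fibroblasts in cortex (1.87), thymus (1.79), testis (1.73) and pancreas (1.10, but -0.46 when scaled to the spiked controls), with an SE of 0.23 each. The pancreas call was lost without pancreas replicate 2 (0.86) or fibroblast replicate 1 (0.78). On the human arrays CSF1R lay between 4.03 and 4.72 in all sources and was called in no tissue.

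CD14 went the other way. It encodes a receptor that hands bacterial endotoxin to the complex of TLR4 and LY96, and is known from monocytes and macrophages. Its rhesus values were 5.10 and 5.36 in cortex, 5.44 and 5.41 in pancreas, 5.38 and 5.37 in testis and 5.56 and 5.39 in thymus, against 8.48 and 8.32 in fibroblasts. Both fibroblast arrays lay above every tissue array, and no neighbouring tissues were told apart (adjusted p from 0.34 to 0.694). CD14 fell by 3.17 in cortex, 3.02 in testis, 2.97 in pancreas and 2.92 in thymus relative to fibroblasts (SE 0.10 each, adjusted p from 8.39e-07 to 1.85e-06), which is 7.59-fold to 8.98-fold. Its human values were 2.75 and 3.07 in cortex, 3.17 and 3.15 in pancreas, 3.08 and 3.03 in testis and 3.07 and 3.78 in thymus, against 6.91 and 6.57 in fibroblasts. Cortex, pancreas and testis were at the floor by these values, at least 11.5-fold below fibroblasts, and thymus was 9.97-fold below. CD14 was the only member called lower than in fibroblasts in all 4 tissues on both array types.

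**Figure D2:**
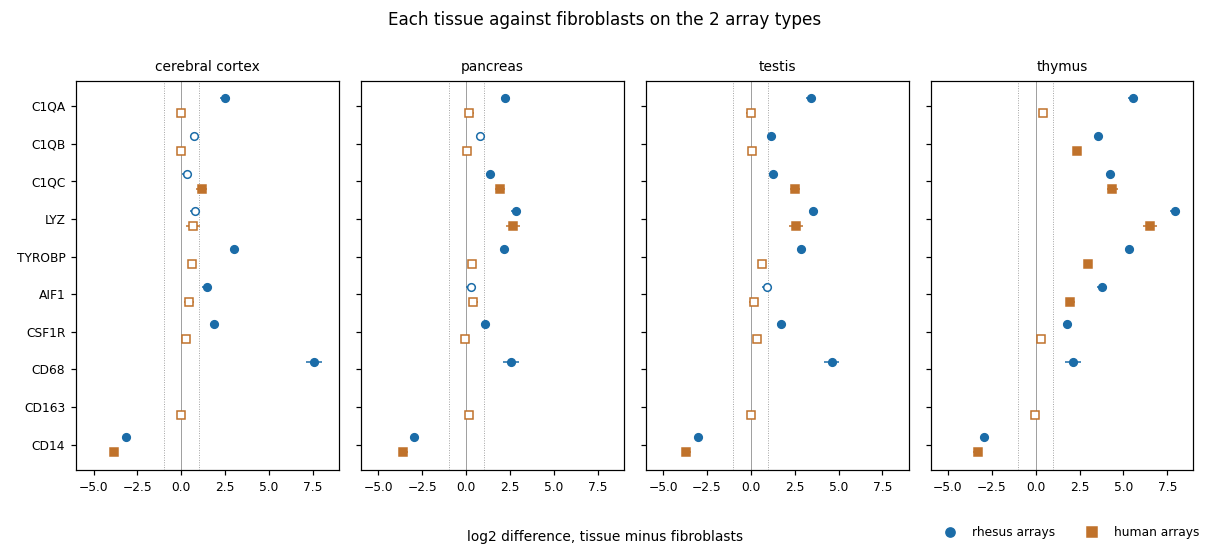
Log2 difference of each tissue from fibroblasts for the brightest probe set of each gene, with the SE as a horizontal bar. Circles are rhesus arrays and squares human arrays, filled where called, and dotted lines mark a difference of 1. CD14 lies left of 0 in every panel on both array types, while C1QA, TYROBP and CSF1R lie further right on the rhesus arrays.

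CD68 encodes a heavily glycosylated membrane protein of lysosomes and endosomes that pathologists use to count macrophages. Its 2 rhesus probe sets gave opposite pictures. The one with the higher mean, MmugDNA.11447.1.S1_at, had 9.85 and 9.88 in cortex, 4.63 and 5.07 in pancreas, 6.87 and 6.92 in testis and 5.15 and 3.66 in thymus, against 2.27 and 2.31 in fibroblasts. By this probe set CD68 was at least 79.2-fold higher in cortex than in fibroblasts (7.57, SE 0.44, adjusted p = 1.48e-05) and was called higher in testis (4.60, at least 10.1-fold), pancreas (2.56, at least 2.45-fold) and thymus (2.12, at least 1.81-fold). The thymus call was lost in a fit of only the 2 sources (adjusted p = 0.0826). The thymus arrays lay 1.49 apart, and pancreas and thymus were not told apart (adjusted p = 0.396).

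The other CD68 probe set, MmuSTS.3489.1.S1_at, had 3.72 and 2.93 in cortex, 5.55 and 5.96 in pancreas, 3.96 and 4.07 in testis and 6.47 and 6.53 in thymus, against 6.39 and 6.29 in fibroblasts. Here cortex and testis were called lower than fibroblasts, by 3.01 and 2.32 in size, and thymus was not called against fibroblasts (0.16, adjusted p = 0.656). Over the 10 rhesus arrays the 2 probe sets correlated at r = -0.909. The level of CD68 in cortex relative to fibroblasts thus has no settled direction in these data, and no other measure of CD68 was used.

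The probe sets of C1QA also differed. The second rhesus probe set of C1QA, MmugDNA.2736.1.S1_at, had 4.04 and 4.75 in cortex, 5.51 and 7.50 in pancreas, 4.75 and 4.87 in testis and 4.62 and 4.03 in thymus, against 5.48 and 5.54 in fibroblasts. It was called in no tissue against fibroblasts, its pancreas arrays differed from each other by 1.99, and it correlated with the first at r = -0.414. Unlike the first, it was called lower in thymus than in pancreas (-2.18, adjusted p = 0.0218). Its mean over the 10 arrays was almost that of the first, so the C1QA values given above rest on a narrow choice between the 2. With C1QA read as the mean of both, cortex exceeded fibroblasts by 0.70 and was no longer called (adjusted p = 0.201).

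**Figure D3:**
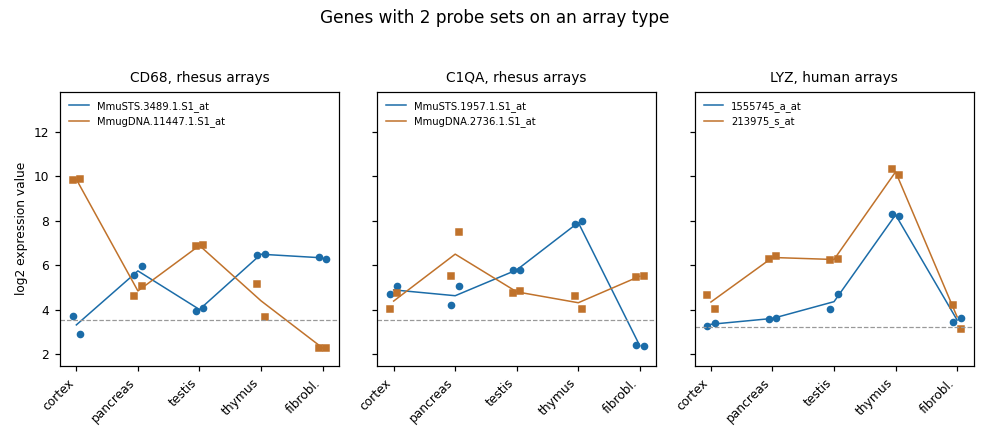
Log2 expression values of both rhesus probe sets of CD68 and of C1QA and both human ones of LYZ, with 1 point per array, lines through the source means and the floor as a dashed line. The 2 probe sets of CD68 run in opposite directions over the sources (r = -0.909), and those of LYZ run together (r = 0.912).

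CD163 is the receptor through which macrophages clear haemoglobin bound to haptoglobin. Its 3 human probe sets were at the floor in all 5 sources, with array values from 2.14 to 3.30. One of them was 0.57 higher in thymus than in fibroblasts (adjusted p = 0.00271), below the minimum difference, and no fold is given for values at the floor.

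**Figure D4:**
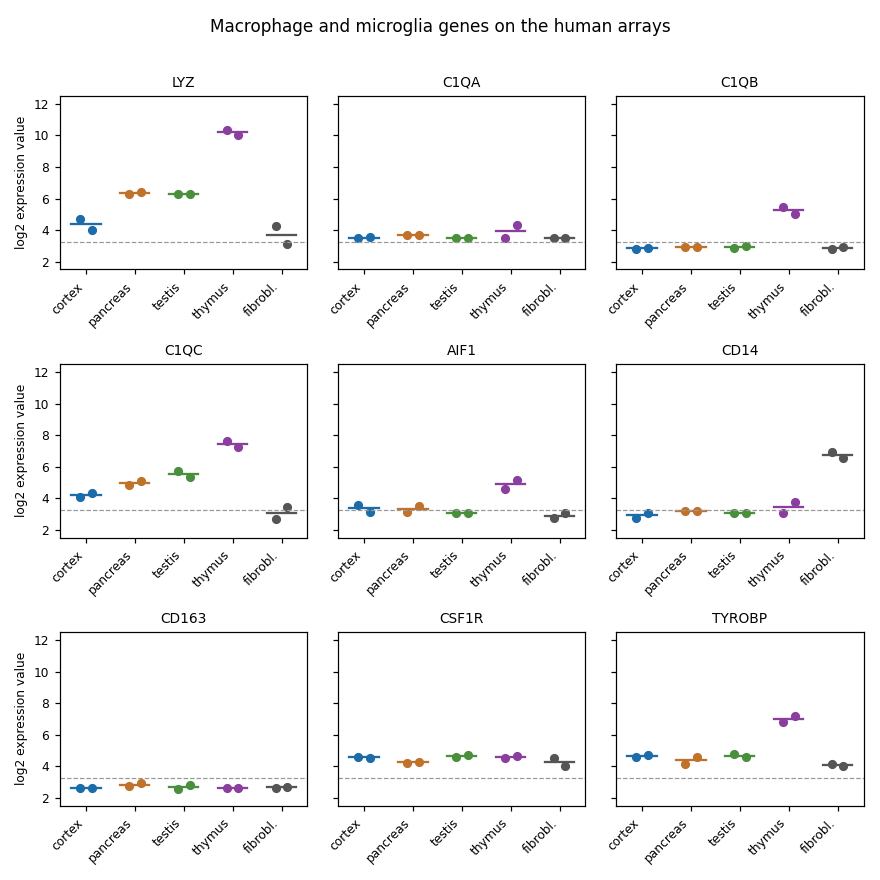
Log2 expression value of the brightest probe set of each gene on the human arrays, drawn as for the rhesus arrays, with the floor of 3.22 as a dashed line. Thymus stands out for LYZ, C1QB, C1QC, AIF1 and TYROBP, fibroblasts for CD14, and CD163 lies below the floor throughout.

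Thymus also exceeded the other tissues. Compared with cortex, 7 of 12 rhesus probe sets were called higher in thymus (18.1% of all probe sets) and 1 lower (14.0%), the one called lower being the brighter probe set of CD68. Compared with pancreas these were 6 (19.9%) and 1 (9.94%), and compared with testis 7 (10.3%) and 1 (11.4%). Against cortex and testis CD68 was counted on both sides, with its dimmer probe set among the higher calls and its brighter one as the lower call. Against pancreas C1QA was counted on both sides, with its brightest probe set among the higher calls and its second one as the lower call (-2.18, adjusted p = 0.0218). Of the 15 human probe sets 7 were higher in thymus than in cortex (9.15% of all), 7 than in pancreas (11.5%) and 8 than in testis (5.02%), and 0 were lower, where 8.15%, 4.72% and 5.52% of all probe sets were. Read from their brightest probe sets, the 5 genes C1QB, C1QC, LYZ, TYROBP and AIF1 were called higher in thymus than in each of the other 3 tissues on both array types. For AIF1 no other probe set was called against all 3 tissues on either array type. The share of all genes that met this condition was not computed. The rhesus differences from the next tissue in order were 4.36 for LYZ, 2.84 for C1QC, 2.39 for C1QB, 2.34 for AIF1 and 2.30 for TYROBP.

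Genes that work beside these members were read the same way, from their brightest probe set, over lists chosen by name. At this gene level 16.9% of 14132 rhesus genes were called higher and 22.5% lower in cortex than in fibroblasts, 10.8% and 25.0% in pancreas, and 16.0% and 18.0% in thymus. Of 19775 human-array genes the shares were 10.8% and 13.2% in cortex, 5.97% and 16.8% in pancreas, and 9.15% and 11.1% in thymus. In testis 17.2% of rhesus genes were called higher and 16.6% lower, and 9.49% and 10% of human-array genes.

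More of the complement partners of C1q were called lower than higher in each of the 4 tissues. Of the 14 listed, 6 had a rhesus and 11 a human probe set. In thymus 1 of the 6 was called higher and 3 lower by rhesus arrays, and 0 of the 11 higher and 5 lower by human arrays. In cortex the counts were 1 and 3 of 6, and 0 and 6 of 11, in pancreas 1 and 3, and 1 and 6, and in testis 1 and 2, and 1 and 3. Lower calls also outnumbered higher ones among all genes in cortex, pancreas and thymus, so the direction alone is not particular to these partners. The testis counts stood against 17.2% higher and 16.6% lower of all rhesus genes, and 9.49% and 10% of human-array genes. C1S, a protease of the C1 complex, averaged 6.47 in cortex and 8.13 in pancreas, against 10.45 in fibroblasts by the rhesus probe set, and was also called lower in thymus (-3.45). Its partner protease C1R, measured by a human probe set only, averaged 3.84 in cortex against 6.65 in fibroblasts. The rhesus probe set of C1S was not called in testis (0.16, adjusted p = 0.117). SERPING1, the inhibitor of these proteases, was called higher in pancreas (4.85 by rhesus, 3.82 by human arrays) and testis (3.38 and 3.28). ITGB2, the shared chain of the leukocyte integrins that include a complement receptor, averaged 9.54 in thymus and 3.63 in cortex, against 11.74 in fibroblasts (rhesus arrays), and was called lower in all 4 tissues on both array types.

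Few of the 12 listed TYROBP partners were above the floor. In fibroblasts it held 5 of the 5 with a rhesus probe set and 9 of the 10 with a human one. TREM2, the microglial receptor that signals through TYROBP, was at the floor in every source on both array types. SYK, the kinase recruited by TYROBP, was called higher in thymus (5.06 rhesus, 2.30 human), testis (4.08 and 1.56) and pancreas (3.23 and 1.08), but not in cortex (0.11 and 0.21). HCST, a sister adaptor and the genomic neighbour of TYROBP, was named after its values were seen. It averaged 6.83 in thymus against 1.95 in fibroblasts (rhesus arrays) and was at the floor in the other 3 tissues. Its human probe set was called in no tissue, with means of 4.27 in thymus, 3.65 in pancreas, 3.41 in testis and 3.18 in cortex, against 3.57 in fibroblasts, and only cortex was at the floor.

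Of the 10 listed ligands of CSF1R and myeloid transcription factors, 8 had a probe set on each array type. IL34, the ligand that brain neurons make, was called higher in cortex by the rhesus arrays, at 5.77 against 2.67 in fibroblasts (3.10, adjusted p = 1.95e-06). The human arrays did not call it (0.34, adjusted p = 0.0866). By rhesus probe set CSF1 was at the floor in every source, and by human probe set it was called only in pancreas, where it was lower than in fibroblasts (-1.35, adjusted p = 0.0345). SPI1, the master regulator of the myeloid lineage, had a human probe set alone and was at the floor in every source. CEBPB, a transcription factor of myeloid and other cells, was called lower in thymus than in fibroblasts on both array types (-4.98 by rhesus arrays), and IKZF1, a transcription factor of lymphoid cells as well, was higher there by 8.02 and 4.11. CEBPA was called higher in pancreas by 5.77 and 3.64. In thymus 2 of the 8 genes of this list were called higher and 1 lower on each array type.

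Among the listed partners of CD14, 1 was also lower in every tissue. LY96, the subunit of the endotoxin receptor, averaged 2.58 in cortex, 2.77 in pancreas, 2.55 in testis and 6.67 in thymus, against 9.60 in fibroblasts (rhesus arrays), and was called lower in all 4 tissues on both array types. TLR4, named after its values were seen, was called in no tissue on either array type. In thymus 1 of the 6 members of this list with a rhesus probe set was called higher and 2 lower, and of the 7 with a human one 0 were called higher and 1 lower.

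Of 19 scavenger receptors and lysosomal genes of macrophages, 15 had a rhesus and 18 a human probe set. In thymus 6 of the 15 were called higher and 2 lower, and of the 18 the counts were 3 and 3. MRC1, the mannose receptor, was higher in thymus by 2.41 and 2.54, and the lipid scavenger CD36, which fat and vessel cells also make, was higher in pancreas by 4.85 and 4.92. Of the macrophage-restricted receptors, MSR1, VSIG4 and MARCO, named after their values were seen, were at the floor in every source on both array types.

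Microglia markers separated cortex only in part. P2RY12, the nucleotide receptor of resting microglia, averaged 7.70 in cortex against 3.45 in fibroblasts by rhesus arrays (4.25), and 6.94 against 3.03 by human arrays (3.91), and was called in no other tissue. GPR34 was higher in cortex by 4.72 (rhesus) and 1.45 (human), but also in testis by rhesus arrays (1.15) and in thymus by human arrays (1.90). CX3CR1, named after its values were seen, was higher in cortex by 4.33 with its human probe set, and at the floor in every source with its rhesus one. TMEM119, a marker of microglia that bone and connective tissue cells also express, was at the floor in cortex and in every other tissue on both array types. In fibroblasts it averaged 7.66 (rhesus arrays). Of the 6 markers with a rhesus probe set 2 were called higher in cortex and 1 lower, and of the 9 with a human one 4 higher and 2 lower.

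Markers of other blood cells moved with the thymus result. All 4 lymphocyte markers with a rhesus probe set and 7 of 8 with a human one were called higher in thymus. The log2 of their summed linear levels was 14.06 to 14.08 in thymus against 4.98 to 5.14 in fibroblasts (rhesus arrays), and all 4 (PTPRC, DNTT, MS4A1 and CD79A) were at the floor in fibroblasts. Dendritic cell markers were called higher in thymus for 4 of 8 rhesus and 4 of 7 human genes, and their summed level was 10.26 to 10.40 in thymus against 6.17 to 6.27 in fibroblasts (rhesus arrays). CD1C, a lipid-presenting molecule that cortical thymocytes also carry, was higher by 6.88 and 5.47. Monocyte and neutrophil markers were called higher for 4 of 9 rhesus and 3 of 9 human genes, with a summed level of 10.49 to 10.53 in thymus against 8.25 to 8.40 in fibroblasts (rhesus arrays). Among these S100A8 was higher by 6.22 and 6.51 and ELANE, a granule protease of neutrophils, by 6.51 and 3.63, while CSF3R, FCN1 and S100A12, named after their values were seen, were at the floor in thymus. The part of these cell types in the thymus levels of LYZ, TYROBP and the other members was not tested.

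Lymphocyte markers moved with the testis result as well. In testis 2 of 4 with a rhesus probe set and 5 of 8 with a human one were called higher, and their summed level was 10.05 to 10.11 in testis against 4.98 to 5.14 in fibroblasts (rhesus arrays), with MS4A1 and CD79A at the floor in testis. The 3 thymus marker genes with a rhesus probe set were also called higher in testis (median 4.60), as were 3 of 5 with a human one. The lymphocyte and thymus lists share genes, DNTT among them, so their counts are not separate observations. The part of these markers in the testis levels of the members was not tested.

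In pancreas, endothelial markers were called higher for 4 of 6 rhesus and 3 of 6 human genes, and the haemoglobin gene HBB was higher by 3.62 and 6.61. Neither was particular to pancreas. Endothelial markers were also called higher in thymus (3 of 6 rhesus, 2 of 6 human), testis (3 and 1) and cortex (1 and 1). Of 3 red blood cell markers with a human probe set, 1 was called higher in each of the 4 tissues, and HBB was at the floor only in fibroblasts there. In cortex 1 of 4 lymphocyte markers was called higher by rhesus arrays and 0 of 8 by human arrays, and their summed level was 5.36 on both cortex arrays of the rhesus type. The part of these values, and of the larger spread between pancreas arrays, in the member levels was not tested.

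Whether the array types gave different answers was tested as the rhesus minus human difference of each tissue minus fibroblasts difference, over the 11956 genes on both array types and all 20 arrays. Of all genes 23.2% were called in either direction for cortex, 24.3% for pancreas, 18.1% for testis and 18.7% for thymus. Of the 8 members on both, 3 were called in cortex, 3 in pancreas, 5 in testis and 6 in thymus. C1QA, TYROBP and CSF1R were called in all 4 tissues, each with the larger difference on the rhesus arrays. The share of all genes called in all 4 tissues was not computed, nor the share with the larger difference on the rhesus arrays. For C1QA the excess was 2.52 in cortex, 2.06 in pancreas, 3.43 in testis and 5.12 in thymus. With the mean of the probe sets of C1QA it was 0.71 in cortex (adjusted p = 0.315) and 1.37 in testis (adjusted p = 0.0531). For TYROBP it was 2.42, 1.87, 2.25 and 2.37, and for CSF1R 1.60, 1.15, 1.37 and 1.49, in the same order of tissues. LYZ (1.41, adjusted p = 0.0415) and AIF1 (1.81, adjusted p = 0.00297) differed in thymus, and C1QB in testis (1.07) and thymus (1.16). Under quantile normalization C1QB was called in neither (0.49 and 0.77) nor LYZ in thymus (adjusted p = 0.0753), and with the mean of the probe sets AIF1 was not called in thymus (0.77). C1QC in testis was the only called case with the larger difference on the human arrays (-1.26, adjusted p = 0.0265), and in thymus its 2 differences were 4.22 and 4.37 (adjusted p of the difference 0.895). CD14 was called in no tissue, and its differences between array types were 0.39 to 0.66 (SE 0.27).

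Over the 10 rhesus arrays C1QB correlated with C1QC at r = 0.968 and with C1QA at 0.927, CD14 with CSF1R at -0.907, and CD68 with LYZ at -0.126. These are descriptions over 5 sources read on 2 arrays each, in which a gene that is high in 1 source alone gives a high r. The genes most like the mean of the 3 C1q chains were LOC703267 (r = 0.994), ZNF544, PRAM1, ANKRD44 and GIMAP8 among 14123 rhesus genes, and ZZEF1 (r = 0.992), UCP2, ARHGEF6, BACH2 and ENPEP among 19766 human-array genes. Those most like TYROBP were SEMA4D (r = 0.994), TOX, CEP41, ABTB1 and ITM2A on the rhesus arrays, and ANKRD44 (r = 0.989), SNCAIP, ADA, CD53 and PRKCQ on the human arrays. All 20 of these entries were higher in thymus than in fibroblasts by their source means. Their selection by r with targets highest in thymus and low in fibroblasts largely fixed that direction. ANKRD44 was the only gene in more than 1 of the 4 sets.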

How the data were processed

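The log2 expression values deposited by the authors form a table for each of the 2 array types. RMA (robust multi-array average) is the only method named in the submitters' processing notes. Its version is not given in the sources used here, nor is the set of arrays it was run on. Values ran from 0.76 to 15.94 on the rhesus and from 0.73 to 15.91 on the human arrays. No further normalization was applied, and arrays were grouped by the source in their labels. The study itself worked with intensities of single probes, which were not used here.

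Each array type was fitted by itself over its 10 arrays by lmFit and eBayes of limma 3.58.1 (R 4.3.3). Controls were left out, which left 52766 rhesus and 54613 human probe sets, with contrasts between sources and Benjamini-Hochberg adjustment. Probe sets were named from the array annotation: 24956 rhesus and 41091 human probe sets had 1 symbol, 361 and 1801 had several and were not used for genes, and 27449 and 11721 had none. The 12 rhesus member probe sets matched the rhesus gene table by gene number. A gene was read from its brightest probe set. An "at least" fold sets the brighter mean against the floor. Summed levels add the linear values of a list. The difference between array types came from 1 fit of 20 arrays, in which a constant offset of a table cancels.

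All members were named, with every probe set. Of each list, up to 3 genes called on both array types with the largest tissue minus fibroblasts difference were considered, with C1R, C1S, TREM2, CSF1, IL34 and SPI1, and the 5 genes most like the C1q mean and TYROBP. Genes outside this rule are marked in the text, except CYP17A1 and CD79A, which were also named after their values were seen. Members, lists and tests were chosen with earlier results of these data known.

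On simulated data for thymus minus fibroblasts, 78 of 100 probe sets changed by 1.5 and 94 of 100 changed by 3 were recovered among 52766 on the rhesus arrays with 4 false calls, and 81 and 94 among 54613 on the human arrays with 2 false calls, with 0 wrong signs. The number of arrays limits precision. Alternatives were other normalizations, a filter at the floor, no minimum difference, an ordinary linear model, the replicate block, leaving out single arrays, fits of only the sources compared, and the mean of a gene's probe sets.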

Additional observations from a re-analysis of the deposited data

Results flagged for a closer look

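For 7 of the 8 genes on both array types, the difference of a tissue from fibroblasts itself differed between the rhesus and human arrays in at least 1 tissue (limma over 20 arrays, adjusted p below 0.05 and a size of at least 1). Of all 11956 genes 18.1% to 24.3% were called in a single tissue. The share of all genes called in at least 1 tissue, which is the background of this count, was not computed, nor was the share with the larger difference on the rhesus arrays. All values are rhesus minus human, on the log2 scale. C1QA differed in cortex (2.52), pancreas (2.06), testis (3.43) and thymus (5.12), TYROBP in cortex (2.42), pancreas (1.87), testis (2.25) and thymus (2.37), and CSF1R in cortex (1.60), pancreas (1.15), testis (1.37) and thymus (1.49). C1QB differed in testis (1.07) and thymus (1.16), AIF1 in thymus (1.81) and LYZ in thymus (1.41). C1QC in testis (-1.26) was the only one of these 17 cases with the larger difference on the human arrays.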

How the results depend on the processing

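Without any 1 array the rhesus probe sets called higher in thymus than in fibroblasts numbered 8 and the human ones 7 to 8. The lower calls in thymus on the rhesus arrays ranged from 1 to 2 with 1 array left out, were 2 without either pancreas array, and were also 2 on the scale of the spiked controls and when only the 2 sources compared were fitted. In cortex on the human arrays the count of higher calls, 1 for probe sets and for genes, ranged from 0 to 1 with 1 array left out. It was 0 under quantile normalization, the spiked scale, an ordinary linear model, the replicate block and fits of only the 2 sources. That call was C1QC, whose adjusted p was 0.0626 under quantile normalization, 0.0692 in the ordinary linear model, 0.0645 with the replicate block and 0.166 in the fit of 2 sources, and 0.056 to 0.164 without any 1 array except fibroblast replicate 4. Within-pair differences of equal numbers correlated at -0.0341 to 0.0177, so the replicate numbers do not pair the arrays, and the replicate block changed no other call.

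On the spiked scale pancreas had 1 rhesus probe set (and 1 gene) called higher and 4 probe sets (2 genes) lower, and 1 human probe set (1 gene) higher and 12 probe sets (7 genes) lower. Fits of only the 2 sources gave 0 higher in pancreas and 1 in testis on the human arrays. Reading a gene as the mean of its probe sets gave 3 genes higher in cortex on the rhesus arrays.

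Signs turned on the spiked scale for rhesus values of C1QC in cortex (-0.17) and of AIF1 (-1.28), C1QB (-0.78), C1QC (-0.18) and CSF1R (-0.46) in pancreas. On the human arrays they turned for CSF1R in cortex (-0.091), testis (-0.21) and thymus (-0.11), for AIF1 (-1.03), C1QA (-1.26), C1QB (-1.40), CD163 (-1.28) and TYROBP (-1.13) in pancreas, and for AIF1 (-0.42), C1QB (-0.49) and CD163 (-0.53) in testis. The other turned signs were uncalled human values near 0. They were C1QB (-0.048) and CSF1R (0.077) in pancreas under quantile normalization, C1QB in pancreas (-0.061) and C1QA in testis (0.017) with array medians subtracted, and CD163 in pancreas (-0.089), testis (-0.093) and thymus (0.29) as the mean of its probe sets. With 1 array left out they were C1QA (0.0066) and C1QB (0.0014) in cortex without cortex replicate 3, CD163 in testis (-0.086) without testis replicate 4, CSF1R in pancreas (0.20) and AIF1 in testis (-0.019) without fibroblast replicate 3, and C1QB in cortex (0.014) without fibroblast replicate 4. Over all arrays left out in turn, these ranged from -0.030 to 0.0066 for C1QA, from -0.080 to 0.014 for C1QB, from -0.31 to 0.20 for CSF1R, from -0.019 to 0.33 for AIF1 and from -0.086 to 0.16 for CD163. The cause was not tested.

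Among called values, rhesus LYZ in cortex gained a call without fibroblast replicate 1 (1.21) and human LYZ in cortex without fibroblast replicate 3 (1.22). Rhesus CSF1R in pancreas lost its call with array medians subtracted (0.85), and rhesus C1QB and C1QC in testis lost theirs under quantile normalization (0.61 and 0.94) and on the spiked scale (0.46 and 0.55). Rhesus AIF1 in cortex lost its call on the spiked scale (0.97), in the fit of 2 sources and with the mean of the probe sets (0.78), and fits of 2 sources also lost rhesus CD68 in thymus and CSF1R in pancreas, and human LYZ in pancreas and testis and C1QC in pancreas (adjusted p from 0.0585 to 0.099). Under quantile normalization CD14 in pancreas differed between the array types (1.23, adjusted p = 0.00197), and C1QB in pancreas did too (1.03), while LYZ in thymus (1.32, adjusted p = 0.0753) and C1QB in testis (0.49) and thymus (0.77) no longer did. With the mean of the probe sets, LYZ differed in pancreas (1.46) and testis (1.86) and AIF1 in thymus no longer did (0.77).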
